A study of Mus musculus with 24 samples.

Results

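The AP-1 and Egr immediate early genes are the 4 Fos genes (Fos, Fosb, Fosl1 and Fosl2), the 3 Jun genes (Jun, Junb and Jund) and the 3 Egr genes Egr1, Egr2 and Egr3. They were taken by gene name from the table of raw read counts, in which 10 of the 28109 rows carry these names. All 10 had enough reads to be tested in every comparison. In mouse muscle cells depleted of Tead1 and Tead4, 3 of them (Fos, Egr2 and Egr3) were higher at day 0 in primary myoblasts (PMs). Of all genes tested there, 1.5% were higher by the same rule, and whether the 3 passed it depended on the libraries kept. As control PMs differentiated, 7 of the 10 were higher by day 6 (20.2% of all genes), while Fosl1 fell in both cell types.

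The messenger RNA of 24 libraries was sequenced in 12 groups of 2, biological replicates per the methods. C2C12 cells are an established line of mouse myoblasts, which the labels assign to strain C3H, and PMs were isolated from mice of the strain labelled C57/B6, aged 3 to 4 weeks per the methods. Both were transfected with a control siRNA, which the labels call siLuc (siControl here), or with pooled siRNAs against Tead1 and Tead4 together (siTead1/4). RNA was taken 24 hours after transfection, before the change of medium (day 0). It was also taken after 3 and 6 days in medium with 2% horse serum, in which myoblasts fuse into myotubes. PMs were grown on matrigel in another medium than C2C12 cells, so cell type, strain, medium and coating cannot be told apart. The labels do not say whether replicates came from separate cultures or mice, and p-values then measure only the spread between these libraries.

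Fos and Jun proteins are bZIP factors that pair as the AP-1 complex. Jun proteins can pair with one another, while Fos proteins need a Jun partner. Egr proteins are zinc finger factors that bind GC-rich DNA, and their activity is held back by the co-repressors Nab1 and Nab2. Most of these genes are switched on within minutes of a growth factor signal, through Srf and its Ets-domain partners at CArG boxes and through Creb and Atf proteins at TGACG sequences. In myoblasts, Fos and Jun are known to oppose Myod1, and AP-1 activity is tied to growth. Tead factors bind the MCAT element, CATTCC, often beside AP-1 sites.

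In mm9, the build of the count table, Fos lies at chr12:86814840-86818223, Fosl1 at chr19:5447703-5455945, Egr2 at chr10:66998223-67004936 and Egr3 at chr14:70477252-70479964.

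The deposited library totals lay between 25453830 and 52784510 counts. The knockdown was read first as a check of the labels. Tead4 fell at all 3 days in PMs (log2 fold change -2.36, -2.58 and -1.75) and at days 0 and 3 in C2C12 cells (-2.21 and -1.76). At day 6 in C2C12 cells it differed by -1.28 (adjusted p = 0.318). Tead1 fell in PMs at day 0 (-1.44) and day 3 (-1.68). Its values of -1.10 in PMs at day 6 (adjusted p = 0.143) and of -2.46, -1.09 and -0.52 in C2C12 cells did not pass the test. All 9 muscle markers were detected in each library. Their summed levels were 643 to 18850 CPM (read counts scaled to the size of the library) in C2C12 cells and 8810 to 32800 in PMs. At day 0 the sums were 643 to 1608 CPM in C2C12 cells and 8810 to 10770 in PMs. Myog was at 674 CPM or more and Myh3 at 2425 or more in every PM library, day 0 included. PMs of day 0 thus already expressed genes of differentiated muscle. The lowest values in C2C12 cells were 2.91 for Myog and 2.67 for Myh3. The 6 fibroblast markers summed to 7.83 to 216 CPM in C2C12 cells, with Dcn at up to 201, and to 18.4 to 161 CPM in PMs, with Thy1 at up to 84.0 and Dcn at up to 64.3, while Tcf21 had 0 reads throughout. The 6 macrophage markers summed to 1.11 to 2.48 CPM in C2C12 cells and 2.35 to 6.29 in PMs, with Itgam at up to 5.09 and with Emr1 and Ptprc at 0.0593 or less. In PMs the 5 endothelial markers summed to 5.08 to 16.1 CPM in the libraries numbered 1 and to 2.82 to 5.22 in those numbered 2. The 4 Schwann markers summed to 5.02 to 14.2 and 2.09 to 2.98 CPM in the same libraries. The part of these cells in the results below was not tested.

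The promoter windows of Fos, Fosb and Egr2 are shown because, of the genes with a window, these 3 had the largest changes from day 0 to day 6 in PMs, and Fos and Egr2 were also called for siTead1/4. RefSeq (GRCm38.p6, another build than the mm9 of the count table) gave windows from 250 bases before to 50 bases after the start for 7 of the 10 genes, that is all but Fosl1, Egr1 and Egr3. In each line below, read 5′ to 3′ on the strand of the gene, capitals mark matches on either strand to TGACG, to CATTCC, to the Ets core CCGGAA or to the CArG box. The Fos window is chr12:85473640-85473939 (plus strand), that of Fosb chr7:19309996-19310295 (minus strand), and the 2 windows shown of the 5 of Egr2 are chr10:67537316-67537615 and chr10:67537619-67537918 (plus strand).
Fos: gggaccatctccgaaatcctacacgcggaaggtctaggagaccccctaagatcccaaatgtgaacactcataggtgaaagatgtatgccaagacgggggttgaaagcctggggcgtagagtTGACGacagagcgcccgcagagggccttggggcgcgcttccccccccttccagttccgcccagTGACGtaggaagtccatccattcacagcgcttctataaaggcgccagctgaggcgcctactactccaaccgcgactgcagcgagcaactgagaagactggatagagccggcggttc
Fosb: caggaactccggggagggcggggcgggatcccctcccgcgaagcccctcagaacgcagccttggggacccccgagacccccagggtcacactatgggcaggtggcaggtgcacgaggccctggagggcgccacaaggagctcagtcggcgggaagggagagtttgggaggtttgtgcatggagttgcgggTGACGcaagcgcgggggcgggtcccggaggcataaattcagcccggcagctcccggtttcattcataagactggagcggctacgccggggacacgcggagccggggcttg
Egr2, upstream start: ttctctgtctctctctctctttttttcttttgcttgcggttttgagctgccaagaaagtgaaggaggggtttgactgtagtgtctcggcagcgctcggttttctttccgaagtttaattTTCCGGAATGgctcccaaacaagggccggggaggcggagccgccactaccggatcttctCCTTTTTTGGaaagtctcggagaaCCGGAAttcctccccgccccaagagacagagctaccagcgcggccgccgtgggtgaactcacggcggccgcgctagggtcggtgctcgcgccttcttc
Egr2, downstream start: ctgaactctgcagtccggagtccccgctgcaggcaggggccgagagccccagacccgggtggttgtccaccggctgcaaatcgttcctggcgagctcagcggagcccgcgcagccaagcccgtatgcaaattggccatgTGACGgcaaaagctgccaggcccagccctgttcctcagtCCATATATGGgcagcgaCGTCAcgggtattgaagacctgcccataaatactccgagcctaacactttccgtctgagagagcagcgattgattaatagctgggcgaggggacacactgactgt

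The Fos window held TGACG at 129 to 125 and at 66 to 62 bases before the start, and the Fosb window held it at 60 to 56 bases. The upstream start of Egr2 had a CArG box 72 to 63 bases before it and CATTCC on the other strand at 127 to 122 bases. This CATTCC overlapped the CCGGAA matches at 131 to 126 and 129 to 124 bases, and another CCGGAA lay at 48 to 43 bases. The downstream start of Egr2 had a CArG box at 72 to 63 bases and TGACG at 111 to 107 and, on the other strand, 55 to 51 bases. Among all 32851 windows of the table, 1.63% held a CArG box, 20.8% TGACG, 14.7% CATTCC and 14.9% CCGGAA. The full 8-base TGACGTCA (1.79% of windows) and the AP-1 sequence TGANTCA (7.81%) were in none of the windows of the 7 genes. Of the windows not shown, that of Junb held TGACG at 106 to 102 bases before the start. Those of Jun, Fosl2, Jund and the Egr2 start at chr10:67535249-67535548 held none of the marked sequences. The remaining Egr2 windows overlapped the downstream one and held the same matches. A match describes the letters of the window and is not a measured binding site.

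At day 0, Fos, Egr2 and Egr3 were higher in siTead1/4 than in siControl PMs. Egr3, an Egr factor known for its role in muscle spindles, was at 0.827 and 1.35 CPM in the siControl libraries and at 4.18 and 6.46 CPM with siTead1/4. Egr2, best known for myelination by Schwann cells, was at 1.82 and 2.14 against 7.05 and 8.63 CPM, and Fos at 3.48 and 2.65 against 8.34 and 9.68 CPM. For each of the 3, both siTead1/4 libraries lay above both siControl libraries. The edgeR quasi-likelihood test gave log2 fold changes of 2.31 (SE 0.39, adjusted p = 0.00774) for Egr3, 1.98 (SE 0.41, adjusted p = 0.0163) for Egr2 and 1.54 (SE 0.23, adjusted p = 0.00482) for Fos, which are 4.96-, 3.95- and 2.91-fold. A gene is called here at an adjusted p under 0.05 and a log2 fold change beyond 1. These 3 of 10 genes were called higher, and none lower, where 1.5% of the 16144 genes tested were called higher. The Schwann markers summed to 5.02 and 2.09 CPM in the siControl and 5.83 and 2.41 CPM in the siTead1/4 libraries of day 0. The endothelial markers summed to 10.4 and 3.10 CPM in the siControl libraries and to 16.1 and 5.22 CPM with siTead1/4. Both sums were higher with siTead1/4 within each library number. The fibroblast sum (23.1 and 20.3 against 18.4 and 19.7 CPM) and the macrophage sum (2.97 and 3.13 against 2.35 and 2.69 CPM) were lower. The part of these cells in the result was not tested. The muscle sum was 8810 to 10770 CPM in these 4 libraries. Several of these calls were lost when libraries of 1 number were left out. Without the siTead1/4 libraries numbered 2 none of the 3 was called (Fos 1.44, edgeR adjusted p = 0.0524, Egr2 1.83, 0.112, and Egr3 1.97, 0.0815). Without the siControl libraries numbered 1, Egr2 (1.87, edgeR adjusted p = 0.0539) and Egr3 (1.97, 0.0562) were not called, and without the siTead1/4 libraries numbered 1 Egr2 was not (2.12, 0.0866). In a fit of all 24 libraries, Fos was not called (1.55, adjusted p = 0.229).

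**Figure D1:**
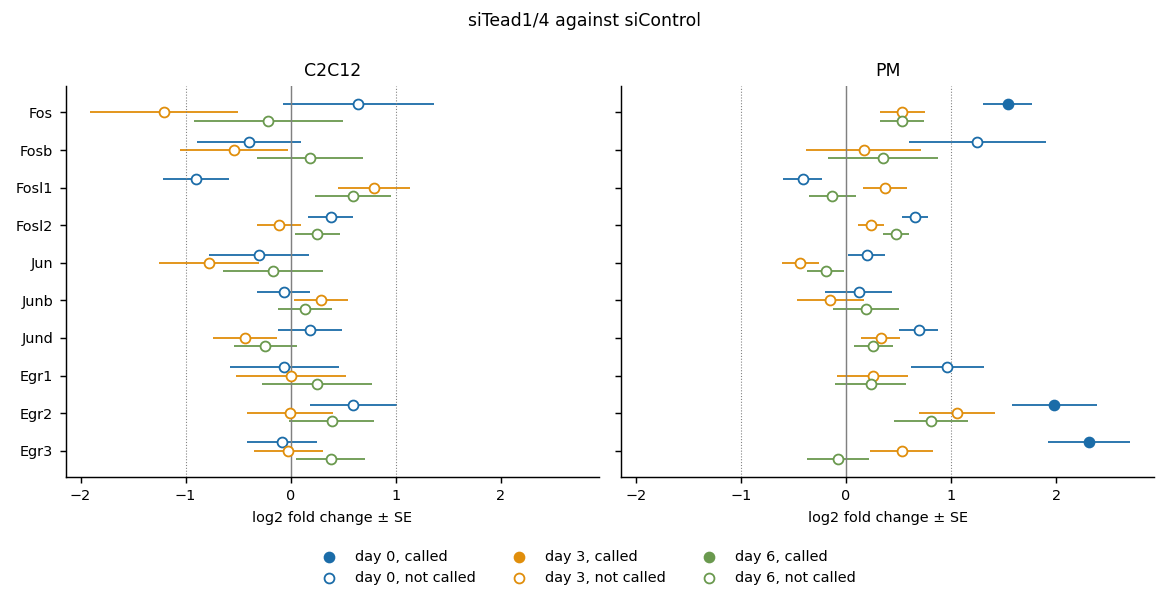
Log2 fold change of siTead1/4 against siControl (horizontal axis, bars are the SE) for the 10 genes at days 0, 3 and 6 in C2C12 cells (left) and PMs (right). Filled points are called genes: only Fos, Egr2 and Egr3 in PMs at day 0 are filled, at 1.54, 1.98 and 2.31.

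The other genes differed by less, or not beyond the test, in PMs at day 0. Fosl2, which binds DNA with Jun but has a weaker activation domain than Fos, was at 39.8 and 40.4 CPM in siControl and at 65.3 and 62.1 CPM in siTead1/4 PMs. Its log2 fold change of 0.66 (edgeR adjusted p = 0.0121) was below the fold threshold. Jund, which restrains growth in many cell types, was at 41.3 and 38.3 against 66.3 and 63.1 CPM (0.69, edgeR adjusted p = 0.0512), with no overlap of the groups. Fosb, the closest relative of Fos, was at 0.551 and 0.451 against 1.18 and 1.24 CPM (1.25, SE 0.65, edgeR adjusted p = 0.285). Egr1, the most abundant Egr gene, was at 64.6 and 42.3 against 111 and 99 CPM (0.96, edgeR adjusted p = 0.121). Jun (0.20) had overlapping groups, Junb (0.12) had groups that almost touched at 74.0 and 74.1 CPM, and Fosl1 had the one value below 0 (-0.41, edgeR adjusted p = 0.218). The median log2 fold change of the 10 genes was 0.83, and that of all tested genes was -0.01.

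On the following days edgeR called none of the genes between siRNAs in PMs, while DESeq2 called Egr2 at day 3. At day 3 none of the 10 genes was called by edgeR, 3 had an unadjusted p under 0.05, and DESeq2 called 1 (3.3% of all genes were called by edgeR in either direction). That gene, Egr2, was at 6.99 and 16.9 CPM in siControl and at 20.2 and 29.8 CPM in siTead1/4 PMs (1.05, edgeR adjusted p = 0.108, DESeq2 0.0306, and edgeR with no filter on low counts 0.00194). The siTead1/4 libraries lay above both siControl libraries for Egr2, Fos, Fosl2 and Fosl1. Fos was at 10.7 and 16.3 against 16.7 and 22.6 CPM, and Fosl2 at 100.1 and 93.5 against 114.6 and 114.5. Fosl1 was at 2.02 and 1.97 against 2.73 and 2.47 CPM. For Jun the siTead1/4 libraries lay below (119 and 143 against 80.9 and 114 CPM). At day 6 none was called by edgeR or DESeq2, with 3 at an unadjusted p under 0.05 (0.743% of all genes called). Fos was then at 27.5 and 31.4 against 40.8 and 44.4 CPM (0.53, edgeR adjusted p = 0.341), again without overlap. Egr3 was at 71.8 and 80.8 against 71.6 and 72.7 CPM (-0.08), with overlapping groups. The change of Egr3 from day 0 to day 6 was 6.09 in siControl and 3.70 in siTead1/4 PMs, on the log2 scale. This difference of -2.39 (SE 0.49) did not pass the edgeR test (adjusted p = 0.0567), but passed DESeq2 (adjusted p = 5.02e-05). Between siRNAs, the change from day 0 differed for none of the 10 genes by edgeR at day 3 (5 at an unadjusted p under 0.05, 1 called by DESeq2, 0.328% of all genes called) and for none at day 6 (2, 1 and 0.626%).

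In C2C12 cells no member was called for siTead1/4 at any day. By edgeR, 1, 1 and 0 of the 10 had an unadjusted p under 0.05 at days 0, 3 and 6, DESeq2 called 0 at each day, and 0.438%, 1.27% and 0.0457% of the 15303 tested genes were called. Egr3 was at 8.22 and 16.1 CPM in siControl and at 11.8 and 11.2 CPM in siTead1/4 C2C12 cells at day 0 (-0.08, SE 0.33). Egr2 was at 8.70 and 11.4 against 13.0 and 17.4 CPM (0.60, SE 0.41), and Fos at 3.15 and 3.15 against 4.61 and 5.27 CPM (0.64, SE 0.72). The siTead1/4 libraries lay above the siControl libraries for Egr2 and Fos but not for Egr3. Fosl1, a Fos family member tied to growth and migration, was at 31.7 and 41.4 against 16.7 and 22.4 CPM (-0.90, edgeR adjusted p = 0.311). After 3 days its level was 0.944 and 1.15 against 1.96 and 1.76 CPM (0.79, edgeR adjusted p = 0.330). The groups did not overlap on either day and their order turned over. The test of this turn, the day 3 change with siTead1/4 minus that with siControl, gave 1.70 (edgeR adjusted p = 0.194, DESeq2 0.0373). It was the 1 gene of the 10 that DESeq2 called there, while edgeR called 0 at day 3 and 0 at day 6, as for all genes (0% each, 1 of the 10 at an unadjusted p under 0.05 on each day, DESeq2 0 at day 6).

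By edgeR, the siTead1/4 effect in PMs was not shown to differ from that in C2C12 cells for any of the 10 genes. The PM effect minus the C2C12 effect at day 0 was above 0 for 10 of 10 genes, with Egr3 at 2.39 (SE 0.54, edgeR adjusted p = 0.300), Fosb at 1.65 and Egr2 at 1.39. EdgeR called 0 of the 10 at each day, against 0.00591%, 1.25% and 0.0354% of all 16926 genes at days 0, 3 and 6. The numbers with an unadjusted p under 0.05 were 2, 1 and 0, and DESeq2 called 1, 0 and 0. The 1 was Egr3 at day 0 (adjusted p = 0.00983), which edgeR also called with no filter on low counts (adjusted p = 5.39e-05). At day 3 the difference for Fos of 1.74 was -0.18 without the siControl libraries numbered 1.

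**Figure D2:**
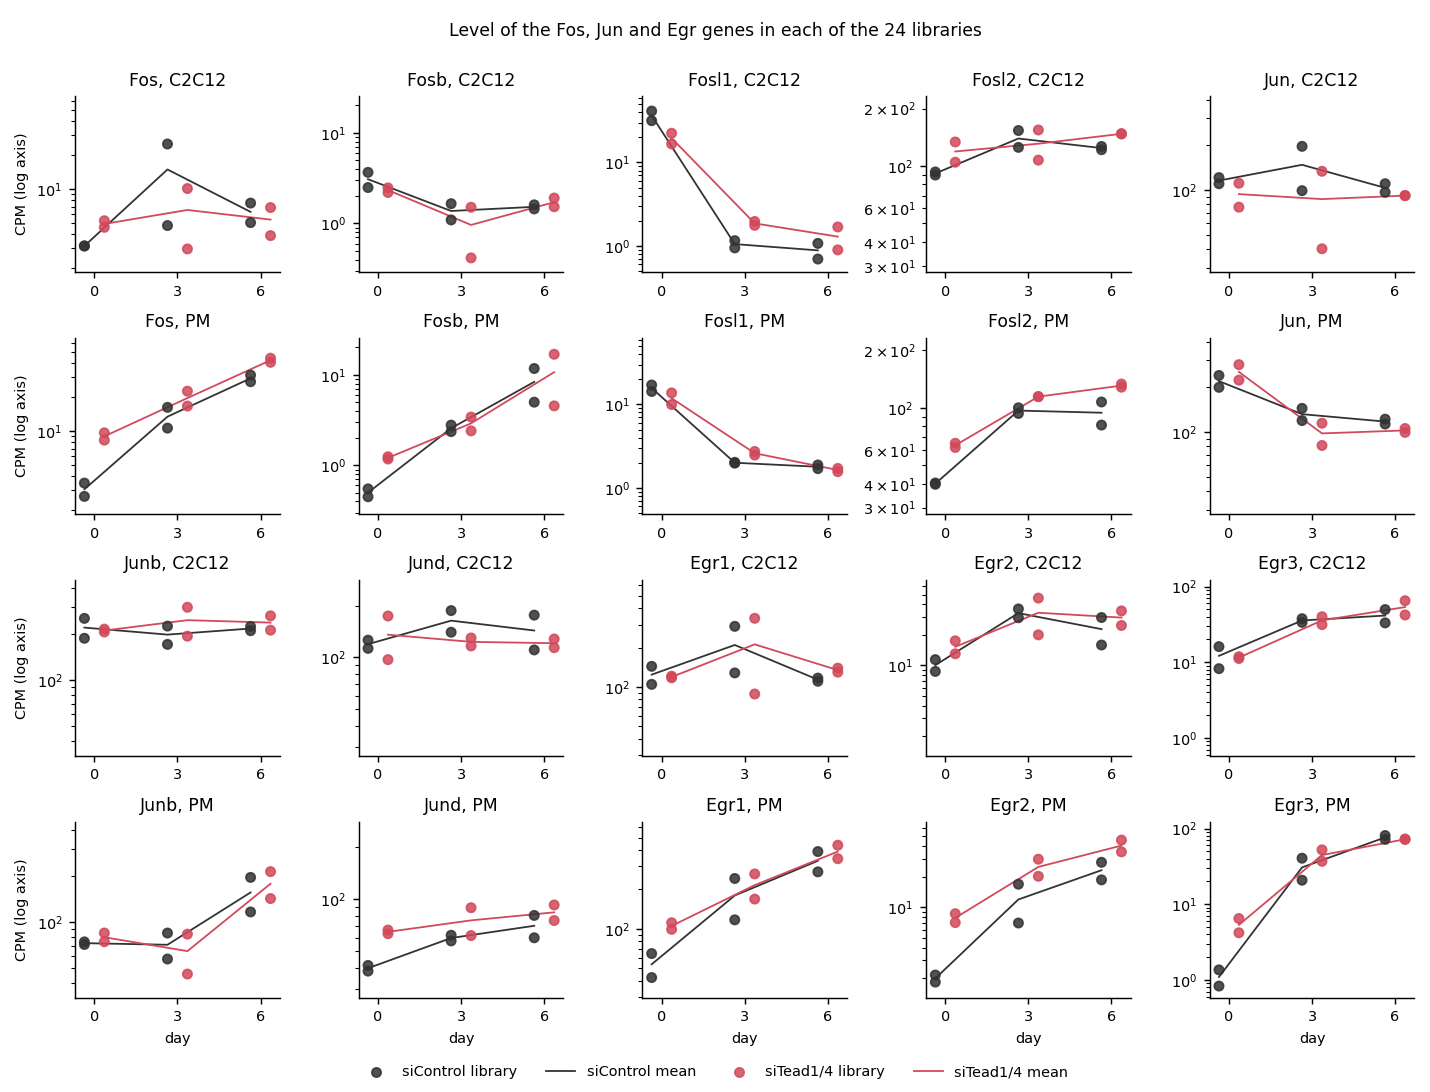
Level of each gene in CPM (vertical log axis, one scale per gene) by day of differentiation, for C2C12 cells (upper row of each pair) and PMs (lower row). Points are libraries, set apart sideways by siRNA, and lines join the means of 2 libraries. Fosl1 falls from 31.7 and 41.4 CPM in C2C12 and 14.3 and 17.1 CPM in PM siControl cells to 2.02 or less at day 3, while Egr3 rises in PMs from 0.827 and 1.35 to 71.8 and 80.8 CPM.

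Most of the family rose as control PMs differentiated. At day 6 against day 0 of siControl PMs, 7 of the 10 genes were called higher, where 20.2% of all genes were called higher, and 1 lower, where 15.3% were. At day 3 the numbers were 6 higher (17.5% of all genes) and 1 lower (14.9%). The median of the 10 log2 fold changes was 1.46 at day 3 and 1.87 at day 6, beside 0.01 and 0.03 for all tested genes. Since these comparisons and the siTead1/4 effect at day 0 share the siControl libraries of day 0, a low level there enters both. The muscle marker sum was 10104 and 10768 CPM in these day 0 libraries, 31558 and 32795 at day 3, then 27058 and 31160 at day 6. The fibroblast marker sum also went up, from 23.1 and 20.3 CPM at day 0 to 35.2 and 22.6, and then to 161 and 101 CPM at day 6, and its part in the rise of the family was not tested. In bulk RNA, more cells expressing a gene and more RNA per cell cannot be told apart.

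All 3 Egr genes rose, and Egr3 had the largest change of the 10 genes. Egr3 was at 0.827 and 1.35 CPM at day 0, 20.7 and 40.5 at day 3, then 71.8 and 80.8 at day 6, without overlap between days. The log2 fold change was 4.78 (SE 0.39, edgeR adjusted p = 3.08e-06) at day 3 and 6.09 (SE 0.40, edgeR adjusted p = 6.71e-07) at day 6, the latter a 68.1-fold rise. Egr2 went from 1.82 and 2.14 CPM to 6.99 and 16.9 and then 18.6 and 27.8 CPM, with log2 fold changes of 2.54 and 3.49. Egr1, which answers mitogens and mechanical strain, was at 64.6 and 42.3, then 117 and 243 and finally 273 and 390 CPM (1.69 and 2.57). At day 3 the libraries numbered 2 were the higher ones for all 3 genes, and without the siControl libraries of that number the day 3 value of Egr1 was 0.80 and not called.

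Among the Fos genes, Fos and Fosb rose together while Fosl1 fell. Fos was at 3.48 and 2.65 CPM at day 0, 10.7 and 16.3 at day 3, then 27.5 and 31.4 at day 6 in siControl PMs. Its log2 fold changes were 2.07 (edgeR adjusted p = 2.91e-05) and 3.19 (edgeR adjusted p = 1.48e-06). Fosb was at 0.551 and 0.451, then 2.36 and 2.78 and finally 4.98 and 11.7 CPM (2.29 and 3.97), and its day 6 libraries differed from each other by more than the day 3 libraries did. The day 3 rise of Fosb was not called without the siControl libraries numbered 1 (2.57, edgeR adjusted p = 0.0624) or 2 (2.03, 0.1). Fosl2 went from 39.8 and 40.4 CPM to 100.1 and 93.5 and then 81.3 and 107 CPM (1.22 and 1.17). With total counts in place of TMM scaling, which shifted the median of all genes to -0.20 at day 3 and -0.15 at day 6, the Fosl2 values were 0.999 and 0.983 and not called. Its day 6 value was 0.96 without the siControl libraries numbered 2. Fosl1 fell from 14.3 and 17.1 CPM to 2.02 and 1.97 and then 1.88 and 1.70 CPM (-3.03 and -3.20, edgeR adjusted p = 1.08e-06 and 7.14e-07).

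By day 6 Jun had fallen, and Junb and Jund had risen. Jun, the partner with the strongest activity, was at 198 and 238 CPM at day 0, 119 and 143 at day 3, then 112 and 121 at day 6 of siControl PMs. Its log2 fold changes of -0.79 (edgeR adjusted p = 0.00293) and -0.96 (edgeR adjusted p = 0.000778) passed the test but not the fold threshold. In siTead1/4 PMs, where it went from 221 and 281 to 80.9 and 114 and then 99 and 105 CPM, it passed both (-1.42 and -1.36). Junb, which can hold back Jun, was at 71.2 and 74.0, then 57.2 and 84.5 and finally 116 and 195 CPM. It was called higher at day 6 (1.03, edgeR adjusted p = 0.0168), though not with total counts (0.84) or without the siControl libraries numbered 2 (0.63). Jund was at 41.3 and 38.3, 57.3 and 61.8 and then 59.8 and 80.6 CPM (0.53 and 0.75, edgeR adjusted p = 0.0329 and 0.00534).

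**Figure D3:**
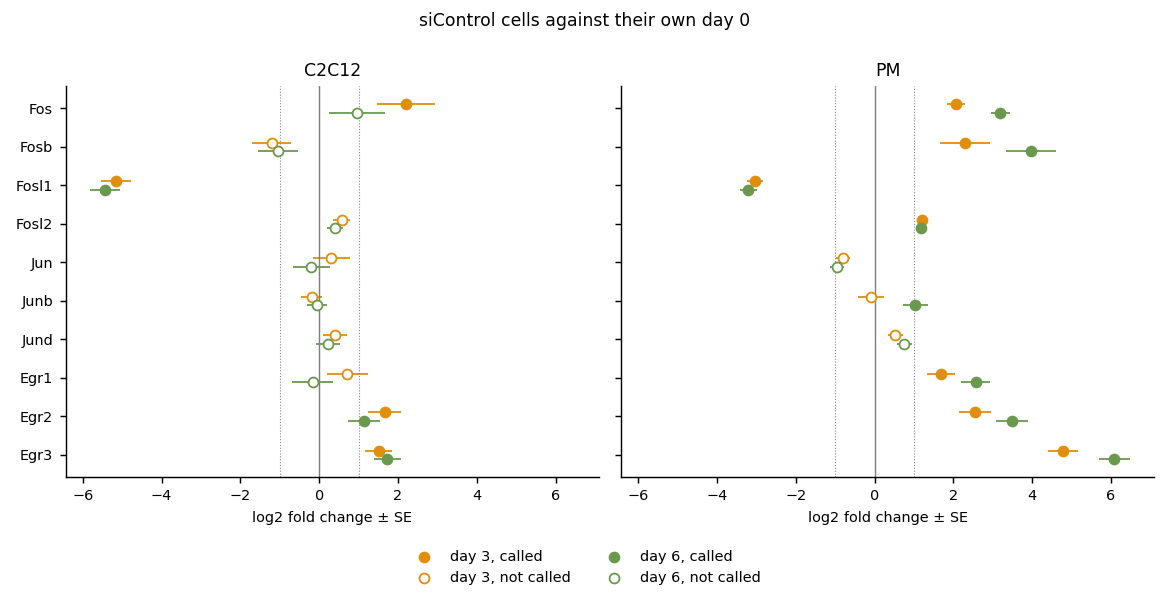
Log2 fold change of siControl cells at day 3 and day 6 against their own day 0 (horizontal axis, bars are the SE) in C2C12 cells (left) and PMs (right). Filled points are called genes. In PMs Egr3 reaches 6.09 and Fosl1 -3.20 at day 6, and in C2C12 cells Fosl1 reaches -5.43 while the other called values lie between 1.14 and 2.20.

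From day 3 to day 6 of siControl PMs, Fos (1.12, edgeR adjusted p = 0.0175) and Egr3 (1.31, edgeR adjusted p = 0.0338) were called higher, where 2.22% of all genes were. DESeq2 called 4, adding Fosb (1.67, adjusted p = 0.022) and Junb (1.11, adjusted p = 0.00624). Neither Fos nor Egr3 was called without the siControl libraries numbered 1 (0.94 and 0.99) or 2 (1.34 and 1.77), or in a fit of all 24 libraries. Egr3 was also lost without the siTead1/4 libraries of either number (1.30 and 1.31). In siTead1/4 PMs the same step gave Fos (1.11) and Junb (1.46, edgeR adjusted p = 0.0285), where 1.84% of all genes were called higher. Both were lost without the siTead1/4 libraries numbered 1 (0.98 and 1.36) or 2 (1.28 and 1.63). Junb stood at 45.7 and 83.2 CPM at day 3 and at 142 and 212 CPM at day 6 in these cells.

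In siTead1/4 PMs, Fos, Egr2 and Egr3 rose and Fosl1 and Jun fell by day 3. At day 3 against their own day 0, Fos (1.07), Egr2 (1.61) and Egr3 (3.0) were called higher, 3 of 10 where 15.9% of all genes were. Fosl1 (-2.24) and Jun (-1.42) were called lower, 2 of 10 where 12.4% were. At day 6, 6 of 10 were called higher (18.2% of all genes), namely Fos (2.18), Fosb (3.08), Junb (1.10), Egr1 (1.84), Egr2 (2.31) and Egr3 (3.70). Fosl1 (-2.92) and Jun (-1.36) were called lower, 2 of 10 (13.7% of all genes). Without the siTead1/4 libraries numbered 2, Fos (0.92) and Egr2 (1.44) at day 3 and Junb (0.86) at day 6 were not called. Egr3 was at 4.18 and 6.46 CPM at day 0, 36.9 and 52.2 at day 3, then 71.6 and 72.7 at day 6.

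In C2C12 cells the largest change of the time course was the fall of Fosl1, and Egr2 and Egr3 were higher at both days. Fosl1 was at 31.7 and 41.4 CPM at day 0, 0.944 and 1.15 at day 3, then 0.694 and 1.07 at day 6 of siControl cells. The log2 fold changes were -5.16 (SE 0.38, edgeR adjusted p = 8.21e-06) and -5.43 (SE 0.39, edgeR adjusted p = 6.12e-06). Egr3 was at 8.22 and 16.1, then 33.6 and 37.6 and finally 33.1 and 49.7 CPM (1.51 and 1.73, edgeR adjusted p = 0.00564 and 0.00259). Egr2 was at 8.70 and 11.4, then 36.0 and 29.5 and finally 15.9 and 29.6 CPM (1.66 and 1.14, edgeR adjusted p = 0.0104 and 0.0482). Without the siControl libraries numbered 1 neither was called (Egr3 1.20 and 1.59, Egr2 1.35 and 1.35), and without those numbered 2 Egr2 was not (2.01 and 0.84). With total counts, Egr2 at day 6 was not called (1.08). In all, 3 of 10 were called higher at day 3 (16% of all genes) and 2 at day 6 (17.1%), and 1 lower at each (12.7% and 14%). With siTead1/4, Egr3 was called higher (1.57 at day 3 and 2.19 at day 6) and Fosl1 lower (-3.46 and -3.94). These are 1 of 10 in each direction, beside 13.8% and 14.4% of all genes higher and 10.8% and 10.7% lower at days 3 and 6. DESeq2 called 4 of the 10 at day 3, adding Egr2 (1.09, adjusted p = 0.0327) and Fosb (-1.31, adjusted p = 0.0392). The fibroblast marker sum of C2C12 cells was 7.83 to 28.4 CPM at day 0, 30.1 to 197 at day 3 and 31.0 to 216 at day 6, and its part in the time course was not tested.

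For most of the 10 genes, the C2C12 library numbered 1 was the higher one at day 3. With siControl, Fos was at 25.2 CPM in the library numbered 1 and 4.78 in that numbered 2, Egr1 at 291 and 128, and Jun at 195 and 98.6 CPM. With siTead1/4, Fos was at 10.2 and 2.96, Egr1 at 335 and 88.1, and Jun at 133 and 40.3 CPM. The library numbered 1 was the higher one in all 6 pairs, while Fosl1 was at 0.944 and 1.15 and at 1.96 and 1.76 CPM. The rise of Fos called at day 3 of siControl cells (2.20, SE 0.73, edgeR adjusted p = 0.0356) was 0.57 (adjusted p = 0.338) without these 2 libraries. It was also not called without all siControl libraries numbered 1 (0.58) or numbered 2 (2.96, adjusted p = 0.0683). Fosb, at 3.66 and 2.49 CPM at day 0 and 1.65 and 1.09 at day 3, had -1.20 (edgeR adjusted p = 0.0794), and -1.51 (adjusted p = 0.0339) without these 2 libraries. Between day 3 and day 6 of C2C12 cells, edgeR called 0 of the 10 genes with either siRNA, as for all genes (0%). None of the 10 had an unadjusted p under 0.05, and DESeq2 called 0 of them.

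Several genes changed differently in the 2 cell types. From day 0 to day 3 of siControl cells, the change in PMs exceeded that in C2C12 cells for 3 of 10 genes, where 3.79% of all genes were called in this direction. These were Fosb (3.50), Fosl1 (2.14) and Egr3 (3.28). To day 6 it did for 5 of 10, where 5.27% of all genes were, namely Fosb (5.05), Fosl1 (2.27), Egr1 (2.76), Egr2 (2.38) and Egr3 (4.39, SE 0.54, edgeR adjusted p = 2.39e-05). For Fosb the direction itself differed, with 3.97 in PMs and -1.05 in C2C12 cells at day 6, although the latter was not called. For Fosl1 the positive sign means a smaller fall in PMs. Without the siControl libraries numbered 1, or without those numbered 2, Egr3 alone was called at each day, 2 calls in place of 8. Fos, with 2.26 at day 6 (SE 0.82), was not called by edgeR (adjusted p = 0.0797) but was by DESeq2 (adjusted p = 0.0301). EdgeR also called it with no filter on low counts (adjusted p = 0.000254) and in a fit of the compared groups only (0.00218).

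The 2 cell types also differed in level. The levels and the differences in time course above rest on the same siControl libraries, so a low PM level at day 0 enters both. The muscle marker sums of day 0 differed too (643 to 1608 CPM in C2C12 cells, 8810 to 10770 in PMs), and their part was not tested. At day 0, siControl PMs had lower levels than siControl C2C12 cells for 7 of 10 genes (10.5% of all genes). The log2 differences were -3.50 for Egr3, -2.60 for Fosb, -2.35 for Egr2, -1.59 for Junb, -1.58 for Jund, -1.22 for Fosl1 and -1.19 for Fosl2. Egr1 had -1.21 (edgeR adjusted p = 0.0582), Jun 0.92 (edgeR adjusted p = 0.0700) and Fos -0.04. DESeq2 did call Egr1 (-1.20, adjusted p = 0.0372). EdgeR called it with a replicate block (-1.56, adjusted p = 0.024) and with no filter on low counts (-1.21, 0.000267). At day 3, 3 of 10 were called lower in PMs (12.6% of all genes), namely Junb (-1.48), Jund (-1.45) and Egr2 (-1.45). At day 6, 4 of 10 were called higher in PMs (15.7% of all genes), namely Fosb (2.45), Fos (2.23), Egr1 (1.55) and Fosl1 (1.05), and Jund (-1.03) was called lower (9.22%). Without the siControl libraries numbered 1, 4 calls were made in place of 15, and without those numbered 2, 10.

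Per kilobase of gene length, which allows levels of different genes to be compared, Junb led in C2C12 and Jun in PM siControl cells of day 0. In PMs the mean CPM per kilobase was 68.3 for Jun, 40.2 for Junb, 13.8 for Jund, 11.9 for Egr1, 9.20 for Fosl1 and 6.85 for Fosl2. Fos (1.30), Egr3 (0.742), Egr2 (0.583) and Fosb (0.134) stood below them. The libraries of Jund and Egr1, of Egr1 and Fosl1, and of Egr3 and Egr2 overlapped, so these neighbours did not differ beyond their spread. At day 6 the order was Junb (86.0), Egr1 (73.9), Egr3 (51.9), Jun (36.7), Jund (24.4), Fosl2 (16.1), Fos (12.5), Egr2 (6.83), Fosb (2.22) and Fosl1 (1.05), with overlap only of Junb and Egr1. In C2C12 siControl cells Junb was first at 121, 109 and 120 CPM per kilobase at days 0, 3 and 6, and Fosb had the lowest mean at 0.819, 0.366 and 0.406, where it overlapped Fosl1 at day 6.

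Within the Fos family per kilobase, the share of Fosl1 fell and those of Fos and Fosl2 rose. In siControl PMs, Fosl1 was 49.9% and 55.2% of the summed CPM per kilobase of the 4 genes at day 0 and 3.9% and 2.8% at day 6. Fos was 8.8% and 6.2% at day 0 and 41.7% and 37.3% at day 6. Fosl2 already held 40.4% and 38.0% at day 0 and was at 49.6% and 51.2% at day 6. In siTead1/4 PMs of day 0 the Fosl1 share was 28.0% and 34.9% and the Fos share 17.0% and 17.8%, without overlap with siControl for either gene. In siControl C2C12 cells Fosl1 fell from 51.3% and 57.5% to 1.7% and 2.4% at day 6. Fosl2 went from 42.3% and 37.7% to 87.6% and 83.5%, while its mean level went from 91.3 to 124 CPM and was not called. Fos went from 3.7% and 3.2% to 9.1% and 12.4%. In siTead1/4 C2C12 cells of day 0 the Fosl1 share was 27.8% and 38.8%, again below both siControl libraries. Within the Jun family of siControl PMs, Jun was 53.6% and 57.9% at day 0 and 29.3% and 21.9% at day 6, and Junb was 34.0% and 31.8% and then 53.4% and 62.0%. These shares are descriptions of RNA levels and were not tested.

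**Figure D4:**
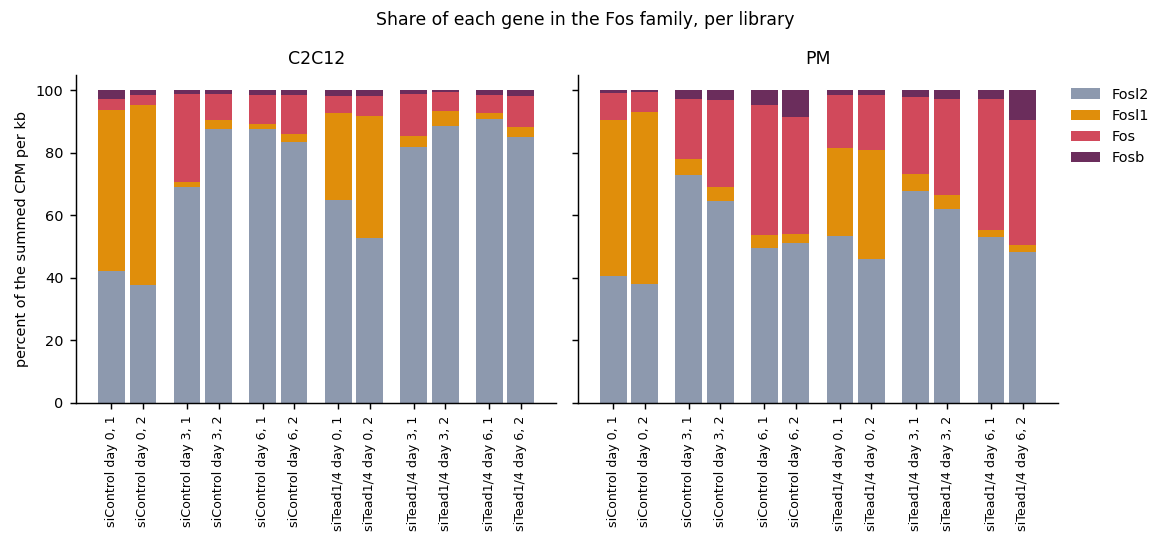
Share of Fosl2, Fosl1, Fos and Fosb in the summed CPM per kilobase of the 4 genes (vertical axis, percent), one bar per library, for C2C12 cells (left) and PMs (right). Fosl1 takes 49.9% and 55.2% of the bar in siControl PMs at day 0 and 3.9% and 2.8% at day 6, when Fos takes 41.7% and 37.3%.

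Across groups, Egr3 had its highest mean in siControl PMs of day 6 (76.3 CPM), which overlapped siTead1/4 PMs of day 6 (72.1), and its lowest in siControl PMs of day 0 (1.09), below siTead1/4 PMs of day 0 (5.32) without overlap. Fos was highest in siTead1/4 PMs of day 6 (42.6 CPM), above siControl PMs of day 6 (29.4), and lowest in siControl PMs (3.06) and siControl C2C12 cells (3.15) of day 0, which overlapped. Fosl1 was highest in siControl C2C12 cells of day 0 (36.6 CPM), above the siTead1/4 cells of that day (19.6).

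Over the 24 libraries, with the mean of each cell type taken off log2 CPM, the genes most like one another were Egr2 and Egr3 (Pearson r = 0.93) and Fos and Egr1 (r = 0.93). Fosl1 ran against Egr3 (r = -0.75). Of the genes outside the family, the 2 nearest to each member included Gm5918 for Egr3 (r = 0.95), Egr2 (0.92), Fosl2 (0.93) and Fos (0.86), and Tead3 for Egr2 (0.91). They further were Cd59a for Egr3 (0.95), Pitpnm2 for Fosl2 (0.92), Fuz for Fos (0.87) and Egr1 (0.88), Synpo for Egr1 (0.88), and Loxl2 and Adamtsl4 for Fosb (both 0.89). For Fosl1 they were Ptbp1 and Celf4 (both 0.98), for Jun Rgs16 (0.83) and Furin (0.82), for Junb Kcnc4 (0.91) and Slc38a10 (0.85), and for Jund Dusp10 (0.87) and Csnk1g2 (0.84). These values are descriptive, since the 24 libraries share days and siRNAs.

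Among 30 other immediate early genes, 2 were called higher and 1 lower with siTead1/4 in PMs at day 0, all 30 being tested, where 242 and 178 of all 16144 genes were. They were Dusp2 (1.48), a phosphatase that turns off MAP kinases, Sgk1 (1.03) and Klf2 (-1.30), named after their values were seen. The median of the list was 0.38. At day 3 Phlda1 was called higher (1.06) and Atf3 lower (-1.24, edgeR adjusted p = 0.0383), and at day 6 edgeR called 0 (9 at an unadjusted p under 0.05, 1 called by DESeq2). In C2C12 cells edgeR called 0 of 29 at days 0, 3 and 6, with 5, 3 and 4 at an unadjusted p under 0.05. DESeq2 called 1, 0 and 0. Of all genes, edgeR called 0.438%, 1.27% and 0.0457% there and 0.743% in PMs at day 6. From day 0 to day 3 of siControl PMs 6 of 30 rose and 3 fell, where 17.5% and 14.9% of all genes did. The largest rise was that of the orphan nuclear receptor Nr4a3, which was at 0.636 and 0.394 CPM at day 0 and 33.9 and 25.7 at day 3 (5.76). Ctgf (3.04) and Nr4a1 (2.49) followed. To day 6 there were 11 up and 2 down of 30 (20.2% and 15.3% of all genes), with a median of 0.68. In siControl C2C12 cells 2 rose and 4 fell at day 3 of 29 tested (16% and 12.7% of all genes), with Dusp5 (-2.90), Nr4a2 (-2.72) and Arc (-2.0) as the largest falls. At day 0 the list had 15 genes lower (10.5% of all genes) and 1 higher in PMs than in C2C12 cells, with a median of -1.17.

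The other bZIP genes that can pair with AP-1 proteins numbered 15, of which 14 were tested. In siControl PMs 5 were called higher and 2 lower at day 3, where 17.5% and 14.9% of all genes were, with Mafa (3.57) as the largest rise. In C2C12 cells 3 were higher and 1 lower (16% and 12.7% of all genes), with Maf at 4.94 and Mafa at 4.07. The Batf3 calls at day 3 rested on 9 and 5 reads at day 0 and 0 in both day 3 libraries of C2C12 cells, and on 10 and 7 against 0 and 0 in PMs. Mafa was lower with siTead1/4 at day 3 in C2C12 cells (-1.81, edgeR adjusted p = 0.0336), and Maf was higher at day 0 (1.77). In PMs Batf3 had 10 and 7 reads in siControl and 52 and 47 in siTead1/4 cells at day 0, a called rise (2.36, edgeR adjusted p = 0.0209). Maf and the day 0 value of Batf3 were named after their values were seen. At day 6 edgeR called 0 of 14 in either cell type, where it called 0.0457% (C2C12) and 0.743% (PM) of all genes. Of the list, 1 in C2C12 cells and 3 in PMs had an unadjusted p under 0.05, and DESeq2 called 0.

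None of the upstream inputs listed was called with siTead1/4, where edgeR called 0.0457% to 3.3% of all genes by day and cell type. At such shares 0 calls are likely in lists this small. Of the 8 genes of Srf and its partners (Srf, Mkl1, Mkl2, Elk1, Elk3, Elk4, Creb1 and Crem), edgeR and DESeq2 called 0 for siTead1/4 on any day in either cell type, with 0 to 2 at an unadjusted p under 0.05. In siControl cells of day 3 Elk3, an Ets factor that represses the Fos promoter, fell in C2C12 cells (-1.42) and PMs (-1.57). Creb1 fell in PMs (-1.08). These are 1 of 8 in C2C12 cells and 2 of 8 in PMs, where 12.7% and 14.9% of all genes fell. Of the 17 kinases upstream of Fos and Jun, edgeR and DESeq2 called 0 for siTead1/4, with 0 to 4 at an unadjusted p under 0.05. At day 3 of siControl C2C12 cells Map2k6 (-2.01), Map2k3 (-1.20) and Rps6ka1 (-1.15) fell, 3 of 16 tested where 12.7% of all genes fell. In PMs both tools called 0 at day 3, with 8 at an unadjusted p under 0.05 by edgeR. The Egr co-repressor Nab2, itself an Egr target, rose in siControl PMs (1.45 at day 3 and 1.08 at day 6). For siTead1/4, edgeR and DESeq2 called neither Nab1 nor Nab2 on any day, with at most 1 at an unadjusted p under 0.05.

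Of the 20 known AP-1 target genes, edgeR called 0 of the 19 tested for siTead1/4 in PMs at day 0, with 5 at an unadjusted p under 0.05, 0 called by DESeq2 and a median of -0.12. In C2C12 cells of day 0 it called 0 of 17, with 6 at an unadjusted p under 0.05, 3 called by DESeq2 and a median of -0.72. The C2C12 median was 0.57 at day 3 and 0.31 at day 6, and that of PMs -0.02 and 0.11. For the day 3 change with siTead1/4 minus that with siControl, the C2C12 median was 0.91. EdgeR called 0 of 17 there, with 7 at an unadjusted p under 0.05 and 1 called by DESeq2. The list was not tested as a set. At day 6 edgeR called 0 in either cell type, with 1 (C2C12) and 2 (PM) at an unadjusted p under 0.05 and 1 and 0 called by DESeq2. At day 3 the cyclin gene Ccnd1 was the 1 gene called by edgeR. It was higher in both C2C12 cells (1.34, edgeR adjusted p = 0.0405) and PMs (1.10, edgeR adjusted p = 0.0361). DESeq2 called 2 genes of the list in C2C12 cells and 1 in PMs on that day. Over the time course of siControl PMs 1 of 19 rose and 7 fell at day 3 (17.5% and 14.9% of all genes), with the cytokine gene Lif at 3.08, the urokinase receptor gene Plaur at -2.68, and the protease gene Mmp3 from 20 and 35 reads to 0 and 1. At day 6, 8 rose and 6 fell (20.2% and 15.3% of all genes). In siControl C2C12 cells 1 of 17 rose and 8 fell at day 3 (16% and 12.7% of all genes), with Ccnd1 (-4.90), the growth factor gene Areg (-4.77) and Plaur (-4.75) as the largest. Over all tested genes the medians of these comparisons lay within 0.03 of 0. For siTead1/4, edgeR called at most 3.3% of all genes on any day in either cell type.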

How the data were processed

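Poly-A RNA of 24 libraries (12 per cell type) was sequenced with a kit that does not keep strand, so overlapping antisense reads cannot be told apart. Per the submitters' processing notes, the authors used CASAVA 1.8.2, TopHat2 2.0.10, Bowtie2 2.1.0, HTSeq 0.6.1 and DESeq2 1.8.1 with mm9. The deposited table holds raw read counts per gene, which were used here, and normalized counts, which were not. A further 36 columns of 12 libraries that are not listed were not used. Library totals were 25453830 to 52784510 counts.

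Groups came from the labels. Counts were filtered with filterByExpr, scaled by TMM and tested with edgeR 4.0.16 (quasi-likelihood, R 4.3.3) in each cell type, or in all 24 libraries for comparisons between cell types, leaving 15303 (C2C12), 16144 (PM) and 16926 genes. The biological coefficient of variation was 0.242, 0.150 and 0.202. P-values were adjusted over all tested genes (Benjamini-Hochberg). Genes were called at an adjusted p under 0.05 and a log2 fold change beyond 1. CPM was computed over all 24 libraries from the totals of the 16926 filtered genes times their TMM factors, and per kilobase with the gene lengths of the table. Scripts were tested on simulated data. Alternatives were DESeq2 1.42.0, other scalings, filters, sample sets, a replicate block and leaving out each replicate. Leaving out the C2C12 day 3 libraries numbered 1 was added after the data were seen.

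The members and lists were chosen with earlier results of these data known. Besides the 10 members, the text names Tead1 and Tead4, up to 3 called genes of each list with the largest change at day 3 (siTead1/4 effect, siControl time course), and the 2 genes most like each member. Other genes are named as examples chosen after their values were seen. Of 2 rows named Tead1, the one that is the Tead1 gene by its identifier was used.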

Additional observations from a re-analysis of the deposited data

Results flagged for a closer look

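The change from day 0 in siControl cells differed between PMs and C2C12 cells, by a test of the difference itself, for 5 of the 10 genes. At day 3 the PM minus C2C12 difference was 3.50 for Fosb (edgeR adjusted p = 0.00885), 2.14 for Fosl1 (0.00113) and 3.28 for Egr3 (0.000437). At day 6 it was 5.05 for Fosb (adjusted p = 0.000455), 2.27 for Fosl1 (0.000772), 4.39 for Egr3 (2.39e-05), 2.38 for Egr2 (0.014) and 2.76 for Egr1 (0.0113). Without the siControl libraries numbered 1, or without those numbered 2, only the 2 Egr3 values were called. The levels of day 0, which were lower in PMs for several of these genes, enter this difference. Cell type, strain, medium and coating cannot be told apart in it.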

How the results depend on the processing

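Of the 69 calls of single members, 69 were also made with DESeq2, with RLE size factors and with no filter on low counts. Total counts kept 62, another set of libraries in the fit 63 and a replicate block 65. Dropping the fold threshold can only add calls, so keeping all 69 there was fixed in advance. Most of the 69 calls compare siControl groups only. Leaving out siTead1/4 libraries acts on those calls only through the shared fit, that is its filter, scaling and spread. Leaving out the siControl libraries numbered 1 or 2 left 42 and 49, and leaving out the siTead1/4 libraries numbered 1 or 2 left 65 and 60. Without the 2 C2C12 day 3 libraries numbered 1, an alternative chosen after the data were seen, 33 of 34 were left.

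Counts of calls moved as follows. For siTead1/4 in C2C12 cells, 0 lower became 1 with no filter, and leaving out replicates gave 0 to 1. In the siControl time course of C2C12 cells, 5 higher became 3 with a replicate block and 0 to 5 without single replicates. The 2 lower became 5 with no filter, 4 without the 2 day 3 libraries and 2 to 4 without single replicates. For siTead1/4 in PMs, 3 higher became 0 to 4 without single replicates and 4 with DESeq2, no filter or a replicate block, each adding Egr2 at day 3 (adjusted p = 0.00441 with the block). In the siControl time course of PMs, 15 higher became 9 to 14 without single replicates, 12 with total counts, 13 with all 24 libraries and 17 with DESeq2, no filter, a replicate block or no fold threshold, and 2 lower became 4 with total counts and with no fold threshold. Between siRNAs, the 0 differing time courses became 1 (DESeq2), 2 (no filter) and 1 (all 24 libraries) in C2C12 cells and 2, 3 and, with a replicate block, 2 in PMs, where Egr3 was called at day 3 (adjusted p = 0.0211) and day 6 (0.00458). The 0 siTead1/4 effects that differed between cell types became 1 (DESeq2) and 2 (no filter). For differences in time course between cell types, DESeq2 called 3 at day 3 and 6 at day 6, where edgeR called 3 and 5. For levels at day 0 it called 8, where edgeR called 7. The 8 differences in time course between cell types became 2 to 8 and the 15 level differences 4 to 16 without single replicates.

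No call was reversed. Uncalled values changed sign without the siControl libraries numbered 1 for Fos with siTead1/4 at day 3 in C2C12 cells (0.43, otherwise -1.21, over single replicates left out -2.33 to 0.43), from day 3 to day 6 there (0.65, and 0.40 without the 2 day 3 libraries, otherwise -1.25, range -2.30 to 0.65), and in the PM minus C2C12 siTead1/4 effect at day 3 (-0.18, otherwise 1.74, range -0.18 to 3.08). The PM minus C2C12 change of Egr1 to day 3 was -0.61 without the siControl libraries numbered 2 (range -0.61 to 2.69). Causes were not tested beyond having fewer libraries.

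The labels do not say what the replicate numbers mark, so they were not taken to pair libraries. Deviations of same-numbered libraries correlated by -0.17 to 0.47 over 15 pairs of groups in C2C12 cells and by 0.05 to 0.50 in PMs, where the siControl and siTead1/4 libraries of a day gave 0.38, 0.41 and 0.50. With total counts the median of all genes shifted by up to -0.23 in a comparison. With 2 libraries a group, and Fosb at as few as 16 reads in a library, smaller changes may go uncalled.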
